A study of Mus musculus with 6 samples.

Results

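NF-kB subunits and targets were followed as a set of 10 genes in RNA-seq of mouse gastrocnemius (GAS) muscle. These were the subunits *Nfkb1*, *Nfkb2*, *Rela* and *Relb*, the IkB genes *Nfkbia* and *Nfkbiz*, the inhibitor *Tnfaip3*, and the targets *Icam1*, *Ccl2* and *Birc3*. The genes were chosen by name, as the rows of the count table that carry these symbols, and all 10 were found among 24532 genes. All 10 also passed the filter on low counts, which 13801 genes passed. GAS muscle was taken from 3 WT mice (*Sirt6* flox/flox) and 3 *Sirt6* KO mice (*Myl1-Cre*; *Sirt6* flox/flox), all of them male, on a C57BL/6 background and 20 weeks of age, with 1 library per mouse. The floxed allele was therefore shared by both groups, and only the KO group carried the Cre. *Myl1-Cre* is mainly active in type II myofibers, and the muscle was sequenced as whole tissue. Other cells may therefore keep *Sirt6* in both groups, which was not measured here.

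NF-kB is a family of dimeric transcription factors built from REL-domain subunits, with p50 made from *Nfkb1*, p52 from *Nfkb2*, and RELA, RELB and c-REL as the subunits that carry a transactivation domain. In resting cells the dimers are held in the cytoplasm by IkB proteins. Cytokine, Toll-like and TNF-family receptors activate kinases that release them, and the dimers then switch on inflammatory genes together with their own inhibitors. SIRT6, a nuclear deacylase, is known to bind RELA and to deacetylate histone H3 lysine 9 at promoters of NF-kB target genes, and in muscle NF-kB signalling is known for its part in atrophy and inflammation.

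The promoter stretches of 3 of the genes are shown because they hold the binding motif of the factor in different ways. *Tnfaip3* and *Nfkbia* carry a match to the NF-kB (kB) consensus close to the transcription start, and *Icam1* has no full match in this window. The consensus searched was GGGRNNYYCC, with R for A or G, Y for C or T and N for any base. The *Icam1* stretch does hold tggaaattcc, which departs from it only at the first base. Each stretch is the 250 bases just before a RefSeq transcription start on GRCm38, read 5′ to 3′ on the strand of the gene, with matches to the kB consensus on either strand in capitals. The stretches lie at chr10:19015411-19015660 on the minus strand for *Tnfaip3*, at chr12:55492648-55492897 on the minus strand for *Nfkbia* and at chr9:21015690-21015939 on the plus strand for *Icam1*.
Tnfaip3: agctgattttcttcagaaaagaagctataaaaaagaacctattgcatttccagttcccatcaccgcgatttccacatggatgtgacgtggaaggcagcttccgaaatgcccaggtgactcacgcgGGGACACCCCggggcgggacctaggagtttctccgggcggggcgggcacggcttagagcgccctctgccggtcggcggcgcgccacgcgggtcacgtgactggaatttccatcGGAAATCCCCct
Nfkbia: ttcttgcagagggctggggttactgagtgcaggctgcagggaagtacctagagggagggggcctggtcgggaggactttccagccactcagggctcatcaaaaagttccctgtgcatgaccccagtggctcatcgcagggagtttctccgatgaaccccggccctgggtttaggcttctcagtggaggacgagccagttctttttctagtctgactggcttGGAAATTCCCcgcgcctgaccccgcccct
Icam1: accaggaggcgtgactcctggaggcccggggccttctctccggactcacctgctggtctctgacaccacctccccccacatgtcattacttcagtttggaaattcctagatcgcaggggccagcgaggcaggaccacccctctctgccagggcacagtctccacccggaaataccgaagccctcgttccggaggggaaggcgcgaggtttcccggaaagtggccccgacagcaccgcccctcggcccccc

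The *Tnfaip3* stretch held matches at 125 to 116 and at 12 to 3 bases before the start. The window before another RefSeq start of *Tnfaip3*, at chr10:19011964-19012213 and not printed, held no match. The *Nfkbia* stretch held a single match at 29 to 20 bases before the start. RefSeq promoters were matched for 6 of the 10 genes, and *Nfkb1*, *Relb*, *Nfkbiz* and *Ccl2* were the 4 without one. Of the 6, *Nfkb2*, *Nfkbia* and *Tnfaip3* had a consensus match in at least 1 of their windows, and *Rela*, *Icam1* and *Birc3* had none, which says only that these letters are not in the windows read. Among all 32851 windows of the same length, 7.25% held a match, and among the tested genes with a promoter 10.8% did. The looser motif GGGNNNNNCC, with GGNNNNNCCC on the other strand, contains every consensus match; it was found in all 6 genes, against 66.0% of the tested genes with a promoter and 45.8% of all windows. A match is a run of letters and was not measured as a bound site.

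The total count per library lay between 44845763 and 63016899, and 1 count was worth between 0.0165 and 0.0212 CPM. Levels are given below as CPM after TMM scaling, and log2 fold changes are *Sirt6* KO minus WT, fitted by edgeR. The targeted gene went against its label: *Sirt6* stood at 2.77, 2.23 and 2.88 CPM in WT muscle and at 7.81, 7.44 and 6.68 CPM among the libraries whose label is *Sirt6* KO, called the KO-labelled libraries from here on. The log2 fold change was 1.48 (SE 0.17, adjusted p = 0.0113 by the quasi-likelihood test of edgeR, adjusted after Benjamini and Hochberg over all genes tested). Counts over a whole gene do not separate a transcript that lacks the floxed exons from an intact one, and the groups are named by their labels throughout. An exchange of labels between the groups was not tested, and it would turn every direction given below. Markers of fast myofibers were the most abundant, with summed levels of 118800 to 199000 CPM. The summed level of 8 slow myofiber markers ran from 157 to 3701 CPM, and WT library 3 was the lowest of all 6. WT library 3 also stood apart in its counts, with a chi-square per gene of 278 and 309 against WT libraries 1 and 2, which gave 44.0 against each other, while the KO-labelled pairs gave 61.5 to 125.

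Of the 10 NF-kB genes, *Tnfaip3* rose and *Icam1* fell in the KO-labelled libraries, and the other 8 did not pass the test. In whole tissue, fewer cells of a type and less RNA per cell cannot be told apart. These are 2 of 10 genes, against 16.2% of all genes tested, so the set was called at about the background rate. The median log2 fold change of the 10 genes was 0.0071, beside -0.0209 over all genes tested. The subunits sat slightly above 0 and the targets below it, but 5 of 10 genes had a fitted change below 0, against 51.6% of all genes. In 3 genes, *Tnfaip3*, *Icam1* and *Ccl2*, the 3 libraries of one group did not overlap the 3 of the other, against 40.0% of all genes tested. *Tnfaip3* was the 1 gene above (20.3% of all genes), and *Icam1* and *Ccl2* were the 2 below (19.6%). The same 3 genes moved by more than 2-fold at p under 0.05 before adjustment, 1 higher and 2 lower, against 7.83% of all genes tested (3.14% higher and 4.69% lower). The smallest two-sided p that an exact permutation test can give with 3 libraries against 3 is 0.1, and it was reached by these 3 genes and by none of the other 7.

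**Figure D1:**
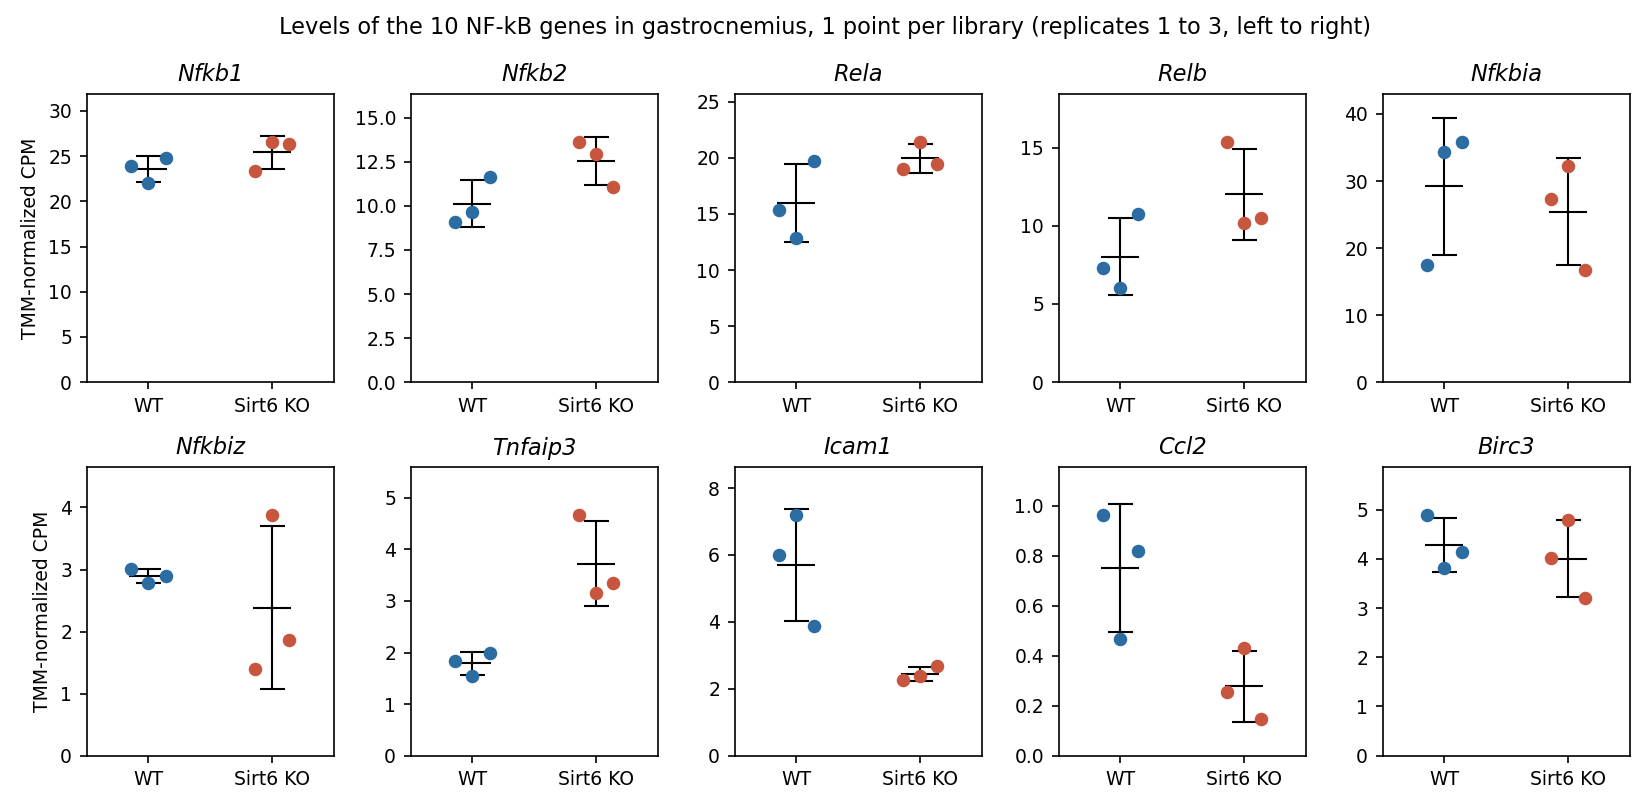
Level of each of the 10 NF-kB genes in TMM-normalized CPM (y axes start at 0), with 1 point per library and the mean and SD over 3 libraries per group. The groups are apart for *Tnfaip3*, *Icam1* and *Ccl2*, and they overlap for the other 7 genes.

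On the length-scaled TPM values that the authors deposited, *Nfkbia* was the most abundant of the 10 transcripts in both groups, at 39.8 ± 11.7 TPM in WT and 32.7 ± 10.3 TPM in the KO-labelled libraries (SD, n = 3). *Rela* (12.8 ± 1.81 TPM) and *Nfkb1* (12.5 ± 1.22 TPM) came next in WT and did not differ beyond their spread. *Relb* (7.87 ± 1.66 TPM) and *Nfkb2* (7.05 ± 0.0861 TPM) formed the next pair in WT, again within their spread. The targets, *Nfkbiz* and *Tnfaip3* were scarcer. *Icam1* stood at 4.93 ± 1.78 TPM in WT, where it overlapped *Birc3* at 3.35 ± 0.710 TPM. *Ccl2* (2.02 ± 0.795 TPM) and *Nfkbiz* (1.72 ± 0.240 TPM) were not told apart by their spread either, and *Tnfaip3*, at 0.879 ± 0.105 TPM, was the lowest in WT. In the KO-labelled libraries the lowest was *Ccl2*, at 0.683 ± 0.349 TPM, and *Tnfaip3* stood at 1.71 ± 0.434 TPM.

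*Nfkb1* (NCBI gene 18033, chr3:135584655-135691969), the precursor of p50, was measured at 23.9, 22.0 and 24.8 CPM in WT and at 23.4, 26.6 and 26.4 CPM in the KO-labelled libraries. The groups overlapped, and the log2 fold change was 0.11 (SE 0.11, edgeR adjusted p = 0.492). *Nfkb2* (NCBI gene 18034, chr19:46300994-46312400), the precursor of p52 in the non-canonical branch, stood at 9.08, 9.67 and 11.6 CPM in WT and at 13.7, 13.0 and 11.1 CPM in the KO-labelled libraries. Only KO library 3 reached into the WT range, and the log2 fold change of 0.31 (SE 0.15) did not pass the test (edgeR adjusted p = 0.176). *Nfkb1* overlaps the lncRNA *Gm46827*, and *Nfkb2* overlaps the lncRNA *4833438C02Rik* and the gene *Psd*. Whether the counting used the strand is not given in the sources used here, so reads in the shared stretches are uncertain.

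*Rela* (NCBI gene 19697, chr19:5637442-5648134), which encodes p65, the main transactivating subunit of the canonical pathway, stood at 15.4, 12.9 and 19.7 CPM in WT and at 19.0, 21.4 and 19.4 CPM in the KO-labelled libraries. WT library 3 lay among the KO libraries while the other two WT libraries lay below them. The log2 fold change was 0.32 (SE 0.17, edgeR adjusted p = 0.210). *Relb* (NCBI gene 19698, chr7:19606217-19629438), the partner of p52, showed the same arrangement, with 7.28, 6.02 and 10.8 CPM in WT and 15.4, 10.2 and 10.5 CPM in the KO-labelled libraries. Its log2 fold change was 0.58 (SE 0.26, edgeR adjusted p = 0.153). Without WT library 3, the edgeR adjusted p of *Rela* was 0.0243 and that of *Relb* was 0.0311. That fit called 2219 of all genes lower and 2363 higher, beside 1158 and 1084 with all 6 libraries. With a correction for GC content the log2 fold changes shrank to 0.06 for *Nfkb2*, 0.07 for *Rela* and 0.36 for *Relb*, while that of *Nfkb1* grew to 0.27 (edgeR adjusted p = 0.147). The GC content of the longest transcripts was 59.4%, 59.4% and 56.8% for the first 3 and 44.9% for *Nfkb1*, and across all genes the fold change rose with GC content (Spearman rho 0.334 over 13715 genes, which are not independent replicates).

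The fifth subunit, *Rel*, which encodes c-REL and is best known from lymphoid and myeloid cells, went the other way from *Rela* and *Relb*. It stood at 3.03, 2.93 and 3.26 CPM in WT and at 1.15, 1.93 and 2.05 CPM in the KO-labelled libraries. All 3 KO libraries lay below all 3 WT libraries, but the log2 fold change of -0.85 (SE 0.26) missed the threshold (edgeR adjusted p = 0.0657, -0.60 after GC correction). As a share of the summed TPM of the 5 subunits, *Rel* made up 6.19%, 6.62% and 5.43% in WT and 1.80%, 3.09% and 3.49% in the KO-labelled libraries (two-sided exact permutation p = 0.1, the smallest possible). *Relb* took 18.3 ± 2.66% in WT and 23.0 ± 4.89% in the KO-labelled libraries (SD, n = 3, exact permutation p = 0.3), and *Rela* took 29.8 ± 1.78% and 31.0 ± 2.27% (exact permutation p = 0.4). The summed TPM of the 5 subunits was 42.8 ± 3.84 in WT and 48.1 ± 3.26 in the KO-labelled libraries (SD, n = 3, exact permutation p = 0.2), so the total did not differ beyond its spread.

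**Figure D2:**
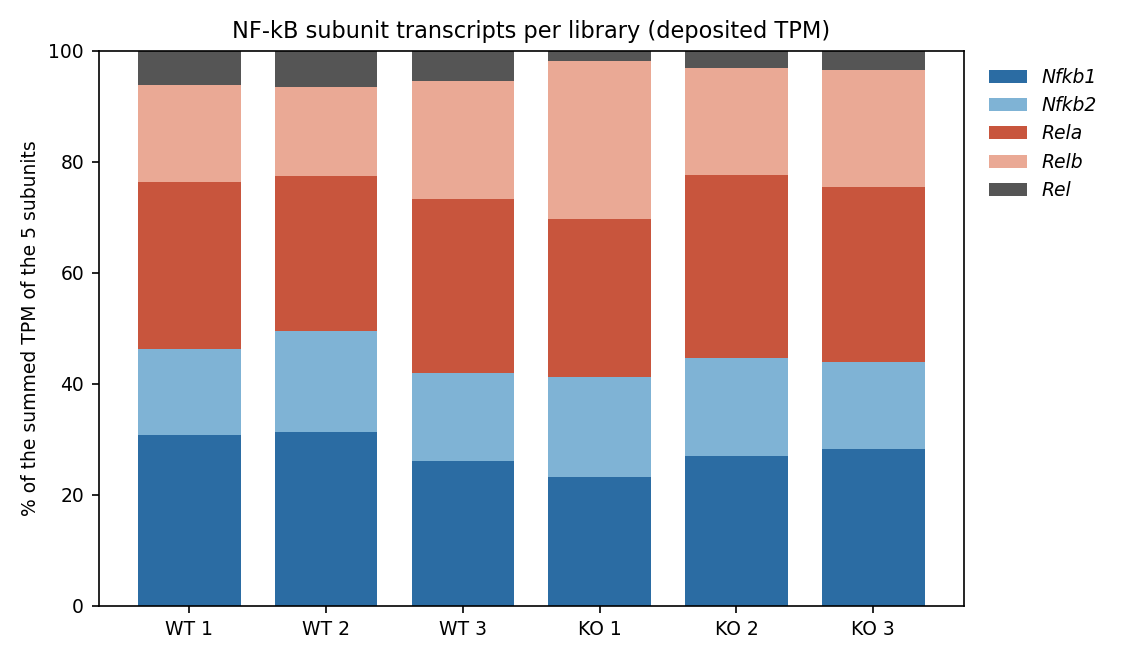
Share of each of the 5 NF-kB subunits in their summed deposited TPM (y axis, %), with 1 bar per library and the replicate number of each group on the x axis. *Rel* takes between 5.43% and 6.62% in the WT libraries and between 1.80% and 3.49% in the KO-labelled ones, while *Rela* and *Nfkb1* remain the largest shares in WT.

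Among the inhibitor and IkB genes of the set, *Tnfaip3* (NCBI gene 21929, chr10:19000910-19015410) was the gene that passed the test. It encodes A20, a ubiquitin-editing enzyme that is induced by NF-kB and shuts the pathway off upstream of the IKK complex. Its level was 1.84, 1.55 and 1.99 CPM in WT and 4.67, 3.15 and 3.34 CPM in the KO-labelled libraries, from counts of 73 to 273. Every KO library lay above every WT library. The mean rose from 1.79 ± 0.225 CPM to 3.72 ± 0.825 CPM (SD, n = 3), a log2 fold change of 1.05 (SE 0.23) or 2.07-fold, with an edgeR adjusted p of 0.0274. The direction held in all 6 fits that each left out 1 library, with log2 fold changes between 0.86 and 1.17, but the adjusted p was under 0.05 in 1 of these 6 fits, the one without WT library 3. Leaving out any of the other 5 libraries gave edgeR adjusted p-values from 0.0506 to 0.0966. After GC correction the log2 fold change was 1.12 (edgeR adjusted p = 0.0388).

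*Nfkbia* (NCBI gene 18035, chr12:55489409-55492647) encodes IkBα, the inhibitor that NF-kB induces to end its own response. It stood at 17.5, 34.3 and 35.9 CPM in WT and at 27.3, 32.3 and 16.7 CPM in the KO-labelled libraries. Each group held 1 library well below its others, and the groups overlapped throughout. The log2 fold change of -0.20 (SE 0.32, edgeR adjusted p = 0.692) turned to 0.03 without KO library 3. *Nfkbiz* (NCBI gene 80859, chr16:55811375-55838954), an inducible nuclear IkB protein, was steady in WT at 3.01, 2.78 and 2.90 CPM. It varied in the KO-labelled libraries, at 1.40, 3.88 and 1.87 CPM, with a CV of 55.2% against 3.95% in WT. Its log2 fold change was -0.28 (SE 0.37, edgeR adjusted p = 0.623), and the fits that left out 1 library gave values from -0.81, without KO library 2, to -0.01. *Tnfaip3*, which passed the test, therefore rose, while *Nfkbia* and *Nfkbiz* were lower on average by less than their spread.

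Among the targets, *Icam1* (NCBI gene 15894, chr9:21015940-21028814) fell. It encodes the adhesion molecule that endothelial and other cells present to leukocyte integrins. Its level was 5.99, 7.19 and 3.89 CPM in WT and 2.26, 2.39 and 2.67 CPM in the KO-labelled libraries, from counts of 132 to 339. All WT libraries lay above all KO libraries, and the KO libraries sat close together, with a CV of 8.63% against 29.3% in WT. The mean was 5.69 ± 1.67 CPM in WT and 2.44 ± 0.211 CPM in the KO-labelled libraries (SD, n = 3). The log2 fold change was -1.22 (SE 0.25), 2.33-fold lower, with an edgeR adjusted p of 0.0234. The fits that left out 1 library gave values from -1.43 to -1.02, and the adjusted p was under 0.05 in 1 of 6, the one without WT library 3. In the other 5 fits the edgeR adjusted p lay between 0.0654 and 0.0890. After GC correction the log2 fold change was -1.42 (edgeR adjusted p = 0.0309).

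The levels of cell type markers moved in part with *Icam1*. Of 8 endothelial markers none passed the test in edgeR, where 2 were lower at an unadjusted p under 0.05, and 1 passed as lower in DESeq2. Without WT library 3, 3 of the 8 passed in edgeR, all lower, in a fit that called 2219 of all genes lower and 2363 higher. The median log2 fold change of the 8 was -0.1058, with 5 below 0 and 3 above, and the groups overlapped in every one of them. Their summed level ran from 165 to 303 CPM in WT and from 210 to 216 CPM in the KO-labelled libraries. WT library 3 had the lowest endothelial sum and the lowest *Icam1* of its group. As a percentage of the endothelial sum of its own library, *Icam1* stood at 2.10, 2.37 and 2.36 in WT and at 1.07, 1.14 and 1.23 in the KO-labelled libraries. The WT libraries were closer together on this scale than in CPM, and the groups stayed apart, with a log2 ratio of means of -0.99 (two-sided exact permutation p = 0.1, the smallest possible). As a percentage of the sum of 9 macrophage markers, *Icam1* stood at 6.67, 16.8 and 7.65 in WT and at 4.37, 4.22 and 4.25 in the KO-labelled libraries. There the WT libraries were further apart than in CPM, and the groups again did not overlap (exact permutation p = 0.1). The same endothelial scale gave *Tnfaip3* 0.646%, 0.511% and 1.21% in WT and 2.22%, 1.501% and 1.55% in the KO-labelled libraries, which did not overlap either. *Pecam1*, a defining endothelial marker singled out after its values were seen, stood at 102, 113 and 59.6 CPM in WT and at 57.1, 60.8 and 51.7 CPM in the KO-labelled libraries (log2 fold change -0.70, SE 0.23, edgeR adjusted p = 0.0765). Of 6 smooth muscle and pericyte markers 2, *Rgs5* and *Cnn1*, passed the test as lower, against 8.39% of all genes tested, and 4 did not pass. Among these 4, *Pdgfrb* was higher in every KO-labelled library than in every WT library (log2 fold change 0.34, edgeR adjusted p = 0.182). Without WT library 3, the fit with 2219 of all genes called lower, 5 of 6 passed as lower. After GC correction none passed, with log2 fold changes of -2.12 for *Cnn1* (edgeR adjusted p = 0.0577) and -0.82 for *Rgs5* (edgeR adjusted p = 0.128), beside -2.02 and -1.10 without the correction. Their summed level ran from 220 to 502 CPM in WT and from 191 to 232 CPM in the KO-labelled libraries. The part of the smooth muscle cells in the *Icam1* difference was not tested.

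**Figure D3:**
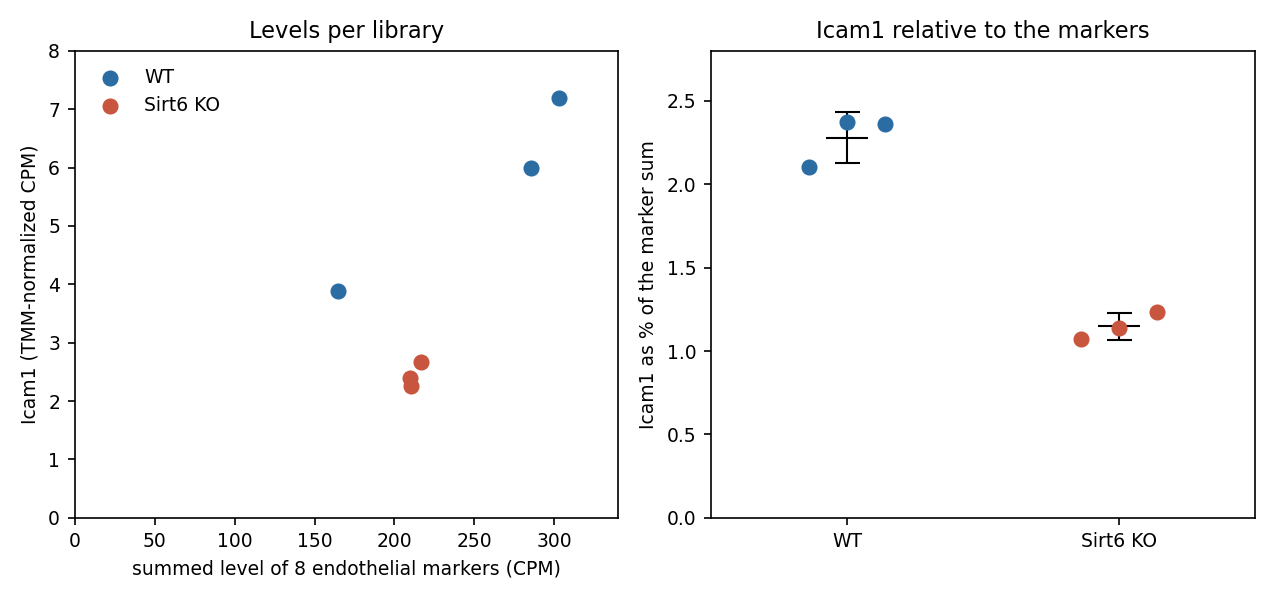
Left, *Icam1* (TMM-normalized CPM, y axis) against the summed level of 8 endothelial markers (CPM, x axis), with 1 point per library; right, *Icam1* as a percentage of that sum, with the mean and SD over 3 libraries per group. The WT libraries lie between 2.10% and 2.37% and the KO-labelled ones between 1.07% and 1.23%.

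*Ccl2* (NCBI gene 20296, chr11:82035577-82037452) encodes the chemokine that recruits monocytes. It was barely detected, with 48, 22 and 47 counts in WT and 15, 26 and 8 counts in the KO-labelled libraries. In CPM these were 0.962, 0.467 and 0.820 against 0.256, 0.429 and 0.145, which did not overlap by a narrow margin between WT library 2 and KO library 2. The level that the filter asks for in 3 libraries, 0.173 CPM, was reached in 3 WT libraries and in 2 of the KO-labelled ones. The log2 fold change of -1.43 (SE 0.50) did not pass the test (edgeR adjusted p = 0.0919). Of 10 macrophage markers none passed the test in edgeR, with none at an unadjusted p under 0.05 and none called by DESeq2. Their summed level was 43.2 to 118 CPM in WT and 56.7 to 64.2 CPM in the KO-labelled libraries, with *Lyz2* at 27.7 CPM in WT library 1 and at 12.5 CPM in KO library 1 against at most 0.318 CPM in the other 4. As a percentage of the macrophage sum without *Lyz2*, *Ccl2* stood at 1.07, 1.09 and 1.61 in WT and at 0.497, 0.758 and 0.231 in the KO-labelled libraries (exact permutation p = 0.1, the smallest possible). On the other scales tried the groups overlapped, with 0.337%, 0.154% and 0.498% of the endothelial sum in WT against 0.122%, 0.204% and 0.0672% in the KO-labelled libraries, and with 0.0871%, 0.0550% and 0.133% of the fibroblast sum against 0.0313%, 0.0579% and 0.0183% (exact permutation p = 0.2 for each). The non-overlap of *Ccl2* therefore depended on the scale.

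*Birc3* (NCBI gene 11796, chr9:7847468-7873205) encodes cIAP2, a ubiquitin ligase of the TNF receptor complex and an NF-kB target. It stood at 4.89, 3.82 and 4.14 CPM in WT and at 4.02, 4.78 and 3.21 CPM in the KO-labelled libraries. The groups overlapped fully, and the log2 fold change of -0.10 (SE 0.21, edgeR adjusted p = 0.769) changed sign without WT library 1 (0.02) and without KO library 3 (0.04). Its neighbour *Birc2*, which encodes cIAP1, was more abundant, at 24.3 ± 0.933 TPM in WT against 3.35 ± 0.710 TPM for *Birc3*. *Birc2* fell, from 34.8, 36.4 and 40.1 CPM to 29.5, 28.7 and 28.2 CPM, with no overlap (log2 fold change -0.37, SE 0.10, edgeR adjusted p = 0.0466), but this call was lost after GC correction (-0.14, edgeR adjusted p = 0.384).

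**Figure D4:**
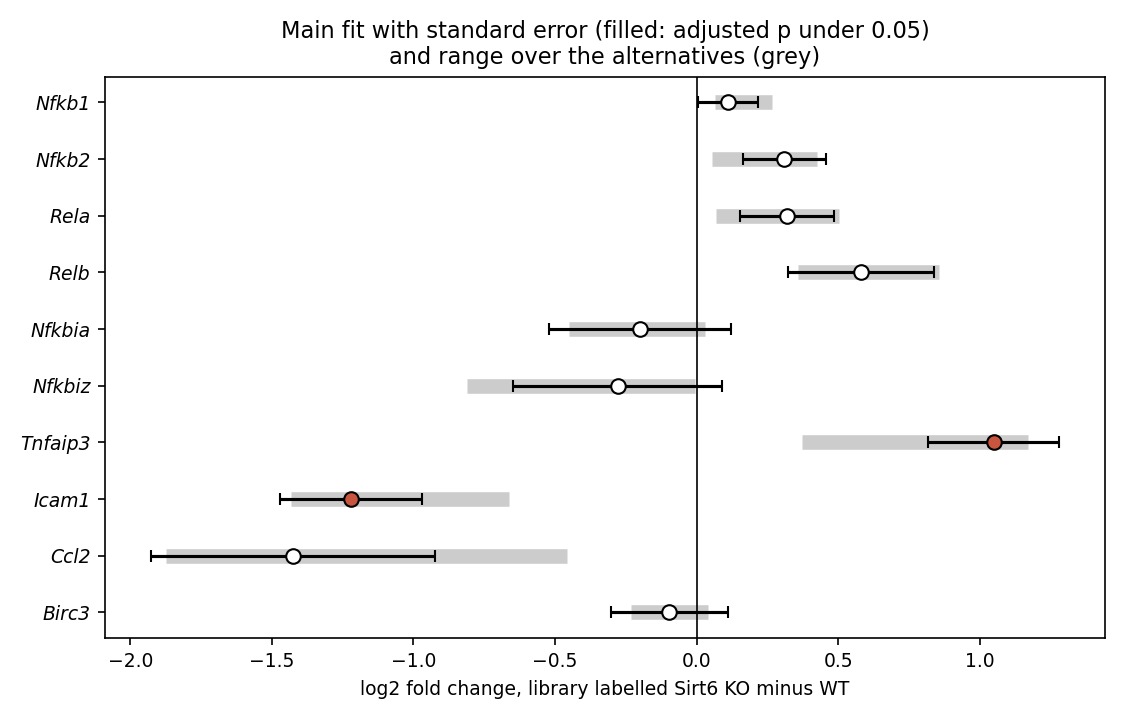
Log2 fold change of each of the 10 NF-kB genes (x axis, *Sirt6* KO minus WT) from edgeR, with its standard error; filled points have an adjusted p under 0.05, and grey bars span the alternatives. *Tnfaip3* (1.05) and *Icam1* (-1.22) are filled, and the grey bars of *Nfkbia* and *Birc3* cross 0.

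Other genes of the NF-kB pathway were grouped into 6 lists by role, 108 genes in all, of which 87 were tested. Of these, 9 fell and 6 rose, which is 10.3% lower and 6.9% higher against 8.39% and 7.85% of all genes tested. The median log2 fold change of the 87 genes was -0.1431, beside -0.0209 over all genes. After GC correction 5 fell and 1 rose, while 483 fell and 467 rose among all 13715 genes of that fit. The counts leaned on single libraries, as did those over all genes. None fell or rose without WT library 2 (153 lower and 96 higher over all genes), KO library 1 (2 and 6) or KO library 3 (5 and 8). Without WT library 3, 14 fell and 10 rose, beside 2219 lower and 2363 higher over all genes. Each of the 15 called genes kept its call in 1 or 2 of the 6 fits that left out 1 library. The lists were chosen with earlier results of these data known, and their counts are a description. Over all genes DESeq2 called 1801 lower and 1730 higher, against which its counts per list stand. No share of all genes was taken at an unadjusted p under 0.05.

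Most of the ligands were at or under the filter on low counts. Of 11 genes 4 were tested and none passed the test in edgeR, with 1 higher at an unadjusted p under 0.05 and 1 called higher by DESeq2. *Il18*, a cytokine of the IL-1 family, stood at 0.341, 0.297 and 0.174 CPM in WT and at 0.923, 0.858 and 0.454 CPM in the KO-labelled libraries, without overlap (log2 fold change 1.46, SE 0.45, edgeR adjusted p = 0.0653). *Tnfsf12*, which encodes TWEAK, stood at 4.91, 3.63 and 2.29 CPM in WT and at 4.05, 4.22 and 4.09 CPM in the KO-labelled libraries, and the groups overlapped. None of the 7 untested ligands had more than 10 counts in a library. *Tnf*, the classical activator, had 10, 4 and 4 counts in WT and 0 in all 3 KO-labelled libraries; it was singled out after its values were seen, and a count of 0 allows up to 3 counts at this depth.

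The receptors had a median log2 fold change of -0.46 over 11 tested genes, the lowest of the 6 lists. Of the 11, 2 fell and none rose in edgeR, against 8.39% lower and 7.85% higher over all genes tested. At an unadjusted p under 0.05, 4 were lower and 0 higher, and DESeq2 called 3 lower and 0 higher. Beside the 4 of 11 stand at least 3549 of all 13801 genes tested, in either direction. *Tlr4*, the receptor for lipopolysaccharide, fell from 13.4, 13.9 and 7.36 CPM to 2.73, 4.85 and 3.49 CPM, with every WT library above every KO library (log2 fold change -1.65, SE 0.31, edgeR adjusted p = 0.0189). *Tnfrsf12a*, which encodes the TWEAK receptor Fn14, fell from 27.4, 31.9 and 33.0 CPM to 12.8, 19.0 and 12.1 CPM (log2 fold change -1.07, SE 0.19, edgeR adjusted p = 0.0171). Both stayed past the threshold after GC correction, at -1.31 for each. The ligand of Fn14, *Tnfsf12*, did not pass the test, with a log2 fold change of 0.19 (edgeR adjusted p = 0.652).

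Among 28 adaptors and kinases, 3 fell and 1 rose in edgeR, against 8.39% and 7.85% of all genes tested, with a median of -0.03. DESeq2 called 4 lower and 4 higher, limma on log2(FPKM + 1) called 3 lower and 3 higher, and the replicate block 1 lower and 2 higher, so no lean to one direction held across them. *Map3k14*, which encodes the NF-kB-inducing kinase NIK of the non-canonical branch, stood at 30.2, 16.9 and 11.2 CPM in WT and at 6.05, 8.89 and 7.06 CPM in the KO-labelled libraries, a log2 fold change of -1.41 (SE 0.35, edgeR adjusted p = 0.0378). Its WT libraries were far apart from each other, and all lay above the KO libraries. The call was missed with the replicate block (edgeR adjusted p = 0.0623) and with limma on log2(FPKM + 1) (adjusted p = 0.0607) and log2(FPKM + 0.1) (adjusted p = 0.0550). *Peli1*, an E3 ligase of Toll-like and IL-1 receptor signalling, fell from 25.5, 27.3 and 25.7 CPM to 13.98, 18.6 and 16.7 CPM (log2 fold change -0.67, SE 0.13, edgeR adjusted p = 0.0200, -0.33 and adjusted p = 0.149 after GC correction), and *Birc2* is described above. *Tab1*, which activates the kinase TAK1, rose from 12.8, 10.5 and 16.3 CPM to 24.5, 23.1 and 23.0 CPM (log2 fold change 0.83, SE 0.17, edgeR adjusted p = 0.0216, and 0.59 with adjusted p = 0.0678 after GC correction).

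Of 15 tested inhibitors and IkB genes beside the 3 described, 1 fell and 2 rose in edgeR, against 8.39% and 7.85% of all genes tested. In DESeq2 2 fell and 3 rose, and the median was 0.02. *Tnip2*, an A20-binding protein, rose from 4.13, 4.09 and 3.72 CPM to 6.32, 7.04 and 6.03 CPM (log2 fold change 0.70, SE 0.15, edgeR adjusted p = 0.0265). *Nfkbib*, which encodes IkBβ, rose from 13.5, 15.4 and 18.9 CPM to 26.4, 21.1 and 26.04 CPM (log2 fold change 0.62, SE 0.16, edgeR adjusted p = 0.0403). *Commd1*, which promotes the removal of RELA from chromatin, fell from 37.3, 41.8 and 38.01 CPM to 30.1, 31.2 and 28.1 CPM (log2 fold change -0.39, SE 0.10, edgeR adjusted p = 0.0413). None of these 3 calls was kept after GC correction, where the log2 fold changes were 0.54, 0.37 and -0.25 and the edgeR adjusted p was 0.0695, 0.176 and 0.162 in turn.

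Among *Rel* and 8 partners of the subunits, none fell and 1 rose in edgeR, against 8.39% and 7.85% of all genes tested, with a median of -0.09. At an unadjusted p under 0.05, 3 were lower and 1 higher, and DESeq2 called 1 lower and 1 higher. *Hdac3*, a deacetylase that acts on RELA and at its target genes, rose from 61.4, 64.4 and 81.9 CPM to 143, 100.01 and 113 CPM, without overlap (log2 fold change 0.78, SE 0.17, edgeR adjusted p = 0.0290, 0.0389 after GC correction).

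Of 31 other targets 20 were tested, and 3 fell and 2 rose in edgeR, against 8.39% and 7.85% of all genes tested. In DESeq2 5 fell and 2 rose, and the median was -0.43. *Trim63*, which encodes the atrophy ubiquitin ligase MuRF1, was the most abundant, and fell from 1177, 2886 and 2551 CPM to 561, 612 and 719 CPM (log2 fold change -1.81, SE 0.33, edgeR adjusted p = 0.0181, 0.0307 after GC correction). *Lcn2*, an iron-binding acute-phase protein, fell from 1.04, 1.74 and 1.15 CPM to 0.222, 0.462 and 0.599 CPM (log2 fold change -1.61, SE 0.43, edgeR adjusted p = 0.0451). The third that fell was *Sod2*, mitochondrial superoxide dismutase, named after its values were seen, with a log2 fold change of -0.74 (edgeR adjusted p = 0.0426). *Tnfaip2*, a TNF-induced gene, rose from 27.4, 22.6 and 15.7 CPM to 70.1, 41.3 and 46.7 CPM (log2 fold change 1.27, SE 0.26, edgeR adjusted p = 0.0235). *Mmp9*, a matrix metalloproteinase, rose from 0.561, 0.382 and 0.401 CPM to 1.11, 0.957 and 1.54 CPM (log2 fold change 1.42, SE 0.34, edgeR adjusted p = 0.0339). After GC correction *Lcn2*, *Tnfaip2* and *Mmp9* missed the threshold, with edgeR adjusted p-values of 0.0520, 0.0551 and 0.0669, while their log2 fold changes stayed of similar size, at -1.78, 1.04 and 1.23. The list was thus called in both directions, as were the 10 genes. The 11 untested targets had no more than 27 counts in any library, among them *Il6*, *Cxcl1* and *Cxcl2*. Within 250 bases before a start, 11 of the 22 other targets with a RefSeq promoter held the kB consensus, *Sod2* and *Tnfaip2* among them, and *Trim63* and *Lcn2* held only the looser motif.

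**Figure D5:**
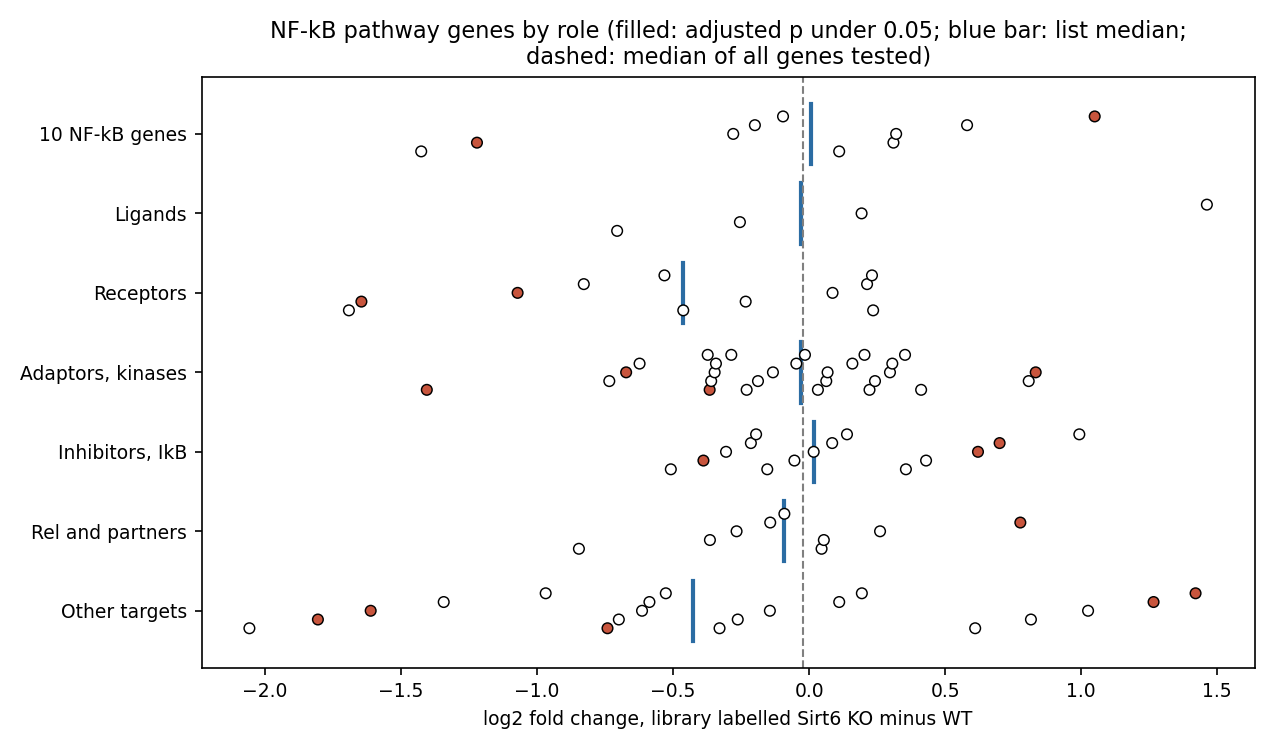
Log2 fold change of every tested gene (x axis, *Sirt6* KO minus WT) of the 10 NF-kB genes and of 6 pathway lists by role (y axis), with 1 point per gene, filled where the adjusted p was under 0.05. Blue bars are the list medians, from -0.46 for the receptors to 0.02 for the inhibitors, and the dashed line is the median of all genes tested, -0.0209.

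Markers of neutrophils and lymphocytes were scarcely detected in the libraries, while all 10 macrophage markers were tested, with the sums given above. Marker levels in whole tissue do not count cells. Of 8 neutrophil markers 1 was tested and did not pass, and the other 7 had no more than 15 counts in a library. None of 8 lymphocyte markers passed the filter on low counts, with no more than 9 counts in a library. Fibroblast markers, 0 of 8 called by edgeR, 1 lower by DESeq2 and 1 lower and 1 higher at an unadjusted p under 0.05, had summed levels of 618 to 1106 CPM in WT and of 741 to 818 CPM in the KO-labelled libraries. Erythroid markers, 0 of 5 called by edgeR or DESeq2 and 0 at an unadjusted p under 0.05, were all below 0 with a median log2 fold change of -0.82. Without WT library 3, 3 of 5 passed as lower, in the fit that called 2219 of all genes lower. The erythroid sum ran from 46.6 to 297 CPM in WT and from 80.2 to 181 CPM in the KO-labelled libraries. The part of any of these cells in the levels of the 10 genes was not tested.

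For each of the 10 genes, the gene most like it was sought among 97 tested genes of the set and the pathway lists, by Pearson's r of the log2 level over the 6 libraries; since the 6 libraries form 2 groups, r includes the difference between them and is a description. *Icam1* was most like *Chuk*, which encodes IKKα (r = 0.988), with *Tlr4* next (r = 0.963). *Tnfaip3* was most like *Hdac3* (r = 0.970), and among the 10 genes themselves most like *Relb* (r = 0.881). *Nfkb2* and *Relb* were both most like *Tnip1*, an A20-binding protein (r = 0.974 and r = 0.938), and *Rela* was most like *Tab3* (r = 0.960). *Nfkb1* was most like *Pias1* (r = 0.844), and *Nfkbiz* was most like *Otulin* (r = 0.862). *Ccl2* and *Birc3* were both most like *Malt1* (r = 0.836 and r = 0.795). *Nfkbia* had the weakest likeness, with *Otulin* (r = 0.646), and no other of the 10 genes came above r = 0.37 with it.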

How the data were processed

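RNA-seq of gastrocnemius muscle from 3 WT and 3 *Sirt6* KO mice was analysed, with groups and replicate numbers taken from the sample labels. The members and all gene lists were chosen with earlier results of these data known. The sources name HISAT2 2.1.0, Bowtie2 2.3.4.1 and StringTie 2.1.3b on mm10 (submitters' processing notes), while the study's reporting summary names STAR. The methods and the labels also name different library kits, and different *Sirt6* flox lines are named within the study. The authors deposited whole-number read counts with no scaling, FPKM values that adjust these for transcript length and depth, and TPM values with the same sum in every library. No per-sample value column was left unmapped (0 columns).

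The main test was edgeR 4.0.16 (R 4.3.3) on the counts, with filterByExpr (13801 of 24532 genes kept), TMM scaling, quasi-likelihood fits of the 2 groups, and p-values adjusted after Benjamini and Hochberg over all genes tested at 0.05. SDs are over 3 libraries. P-values set the difference between the groups against the spread between these libraries. Permutation tests were exact and two-sided. They used log2(CPM + 1) for genes, the subunit share or summed TPM itself, and log2 of the percentage of a marker sum. Library totals were 44845763 to 63016899, TMM factors 0.909 to 1.11, and the common biological coefficient of variation 24.1%, and a floor of 3 counts covers counting error only. No pair of replicates agreed within sampling noise (chi-square per gene of 44.0 or more).

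Genes named were the 10 members, *Sirt6*, *Rel*, *Birc2*, in each pathway list the called genes without overlap (at most 4 by size of change, or the 2 with the smallest p where none was called), and the gene most alike each member. The alternatives were DESeq2 1.42.0, its size factors in edgeR, all genes with a count, a minimum of 10 counts in each library, limma 3.58.1 on quantile-normalized FPKM as log2 with a pseudocount of 1 or 0.1, a replicate block, a GC correction (lowess span 0.3, GC content of the longest GENCODE M21 transcript, known for 99.4% of genes) and each library left out in turn. Levels relative to marker lists were added after seeing the data. Coordinates and promoters are from RefSeq on GRCm38 (GRCm38.p6), with 24462 genes matched by NCBI gene identifier; promoters were searched over 250 bases before each start.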

Additional observations from a re-analysis of the deposited data

How the results depend on the processing

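Under the 8 alternatives that kept all 6 libraries, the 10 NF-kB genes gave 1 lower and 1 higher call each time. Of 139 alternative values for the 10 genes, 124 kept their direction and side of the threshold, 10 lost the call, 2 gained one and 3 changed sign (*Nfkbia*, -0.452 to 0.0301 over the fits that left out 1 library, and *Birc3*, -0.230 to 0.0415, which turned without WT library 1 at 0.0210 and without KO library 3). *Ccl2* gave no value with at least 10 counts in every library. With DESeq2's Wald test 1801 genes fell and 1730 rose, and 15 and 11 of the pathway genes. With GC correction 483 fell and 467 rose, 5 and 1 of the pathway genes, and *Tnfsf12* turned to -0.0488. Pathway genes that fell numbered 5 without a filter and 5 with limma on log2(FPKM + 0.1), and none (0) of the 10 genes passed 2-fold with limma on log2(FPKM + 1), a scale that shrinks low genes by construction.

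Leaving out 1 library gave 2 to 2219 genes lower and 6 to 2363 higher, with the fewest without KO library 1 and the most without WT library 3. It gave 0 to 1 of the 10 genes lower, 0 to 3 higher and 1 to 3 past 2-fold, and 0 to 14 pathway genes lower and 0 to 10 higher. *Tnfsf12* ran from -0.0490, without WT library 3, to 0.490. *Sirt6* stayed between 1.37 and 1.55, with an edgeR adjusted p of 0.0606 without KO library 1 and 0.0650 without KO library 3. The causes were not tested. The shared replicate numbers did not pair the libraries: same-numbered deviations correlated at -0.0982, 0.239 and 0.147, and not every library was most like its own number. With the replicate block 1018 genes fell and 904 rose, with 1 and 1 of the 10 genes, 2 past 2-fold, and 8 and 6 of the pathway genes. Depth limits *Ccl2* and the untested ligands and chemokines, at few counts a library.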
